A study of Mus musculus with 6 samples.

Results

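The 7 genes Trim54, Trim55, Trim63, Fbxo32, Fbxo40, Asb2 and Mdm2 encode ubiquitin ligases, or the substrate-binding subunits of ubiquitin ligases, that act in heart and skeletal muscle. They were picked by gene symbol, with earlier results of these data known, from a table of 26332 mouse genes with values. All 7 were among the 14584 genes with enough signal to be tested. The table holds nuclear RNA from atrial cells of mice aged 8 to 12 weeks. Both atria of an animal were combined, and nuclei stained for PCM1, a protein that marks the envelope of cardiomyocyte nuclei, were sorted by flow cytometry before sequencing. The first group was 3 animals of the genotype Prrx1(R1A)-/-, and the second was 3 animals labelled control, whose genotype is given only by that word and by "wt" in the column names. Prrx1 encodes a homeodomain transcription factor of mesenchyme. The labels do not explain R1A, and the strain is not given in the sources used here. Each animal gave 1 library.

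Ubiquitin ligases select the proteins that the proteasome degrades: an activating enzyme loads ubiquitin, a conjugating enzyme carries it, and the ligase brings it to the substrate. In striated muscle, Trim63 (MuRF1) and Fbxo32 (atrogin-1, also called MAFbx) are the best known ligases of muscle wasting, and FoxO transcription factors and the glucocorticoid receptor switch both on. Trim63, Trim55 (MuRF2) and Trim54 (MuRF3) are close relatives with a RING finger, a B-box and a COS box, and they sit on titin and microtubules in the sarcomere. Fbxo32 and Fbxo40 are F-box proteins, which recruit substrates to the SKP1 and CUL1 ligase; Asb2 is the ankyrin-repeat and SOCS-box subunit of a CUL5 ligase that degrades filamins, and Mdm2 is the RING ligase that keeps p53 low.

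The stretches of DNA around the start of transcription are shown for 5 members, because RNA in the nucleus is close to transcription. They were searched for letters that match elements of FoxO factors, the glucocorticoid receptor and muscle regulators. The sequences are RefSeq windows on GRCm38.p6, running from 250 bases before the start to 50 bases after it on the gene's own strand. Capitals mark the FoxO element GTAAACA, the muscle E-box CAGCTG or CACCTG, the hexamer TGTTCT of the glucocorticoid receptor, the MEF2 site or the CArG box, each searched on both strands. The windows are chr4:134314870-134315169 on the plus strand for Trim63, chr5:31116362-31116661 on the plus strand for Trim54, chr16:36990418-36990717 on the minus strand for Fbxo40, chr12:103355952-103356251 on the minus strand for Asb2, and chr10:117710709-117711008 on the minus strand for Mdm2.
Trim63: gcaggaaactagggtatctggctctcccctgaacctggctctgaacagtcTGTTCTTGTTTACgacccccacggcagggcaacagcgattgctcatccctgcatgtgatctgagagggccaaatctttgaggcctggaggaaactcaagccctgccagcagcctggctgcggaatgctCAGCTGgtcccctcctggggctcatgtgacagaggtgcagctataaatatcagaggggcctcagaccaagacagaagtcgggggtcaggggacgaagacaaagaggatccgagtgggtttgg
Trim54: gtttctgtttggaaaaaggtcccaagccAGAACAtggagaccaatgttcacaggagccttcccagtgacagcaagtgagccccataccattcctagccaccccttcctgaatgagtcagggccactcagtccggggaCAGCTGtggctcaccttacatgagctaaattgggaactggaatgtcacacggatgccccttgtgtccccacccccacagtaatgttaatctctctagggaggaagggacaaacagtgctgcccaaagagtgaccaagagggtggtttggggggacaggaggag
Fbxo40: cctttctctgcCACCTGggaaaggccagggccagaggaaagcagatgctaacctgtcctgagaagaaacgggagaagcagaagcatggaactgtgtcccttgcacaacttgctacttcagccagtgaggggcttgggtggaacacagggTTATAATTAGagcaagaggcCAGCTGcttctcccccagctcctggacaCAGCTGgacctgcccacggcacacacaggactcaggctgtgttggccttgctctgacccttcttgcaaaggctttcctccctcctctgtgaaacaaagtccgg
Asb2: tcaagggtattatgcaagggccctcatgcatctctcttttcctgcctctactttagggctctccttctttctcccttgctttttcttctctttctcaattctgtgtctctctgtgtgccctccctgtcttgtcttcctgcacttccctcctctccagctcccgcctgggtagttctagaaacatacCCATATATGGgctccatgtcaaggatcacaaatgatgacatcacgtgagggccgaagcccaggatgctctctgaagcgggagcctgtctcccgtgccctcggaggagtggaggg
Mdm2: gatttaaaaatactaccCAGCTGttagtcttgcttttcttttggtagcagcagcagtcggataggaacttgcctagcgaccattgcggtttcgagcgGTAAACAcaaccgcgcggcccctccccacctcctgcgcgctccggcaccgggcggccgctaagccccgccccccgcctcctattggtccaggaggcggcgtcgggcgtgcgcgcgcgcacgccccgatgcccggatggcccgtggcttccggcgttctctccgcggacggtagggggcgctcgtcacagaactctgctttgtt

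In Trim63 the capitals TGTTCTTGTTTAC are the glucocorticoid receptor hexamer, beginning 200 bases before the start, followed at once by a FoxO element read on the other strand, beginning 194 bases before it. The FoxO element was in 1 window each of Trim63 and Mdm2, so in 2 of the 7 windows of 5 members, and in 3.65% of all 32851 windows. The E-box CAGCTG, which reads the same on both strands, was in 6 of these 7 windows (Fbxo40 and Asb2 have 2 windows each) and in 16.3% of all windows. All 5 genes had it in at least 1 window, against 18.3% of all genes. Asb2 had it only in the window that is not shown, beginning 22 bases after the start. Fbxo40 and Asb2 are each shown by 1 window, the one with the MEF2 site or the CArG box. The 10 bases TTATAATTAG of the MEF2 site in Fbxo40 began 101 bases before the start, and the CArG box CCATATATGG in Asb2 began 64 bases before it; these were in 1.86% and 1.63% of all windows. The hexamer was in 19% and CACCTG in 20.2% of windows. No marked elements overlapped in the 5 windows shown. A match of letters is a description and not evidence that a factor binds there. No window is shown for Trim55 and Fbxo32. On GRCm38, Trim55 lies at chr3:19644344-19692584 on the plus strand with 11 merged exons, and Trim63 at chr4:134315120-134329629 on the plus strand with 10. Fbxo40 lies at chr16:36963461-36990530 with 4, Asb2 at chr12:103321142-103356001 with 11, and Mdm2 at chr10:117688875-117710758 with 9, all 3 on the minus strand.

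Of the 7 ligases, 6 had higher nuclear RNA levels in Prrx1(R1A)-/- than in control atrial nuclei, with fitted differences between 0.85 and 1.94 on the log2 scale, though Trim54, Fbxo32 and Asb2 were slightly below 0 once each library was centred on its own cardiomyocyte genes. Mdm2 differed by −0.14, and its groups overlapped. None of the 7 passed the test over all genes. That test was limma on log2(normalized count + 1) with Benjamini-Hochberg adjustment, and it called 2 genes of 14584, or 0.0137%. At an unadjusted p under 0.05, 6 of the 7 members were higher, against 6.67% of all genes tested, and 0 were lower, against 5.25% of all genes. In 5 members every Prrx1(R1A)-/- library lay above every control library, a pattern seen in 8.89% of all genes. The members and the lists below were chosen with earlier results known, so shares set beside those of all genes are descriptions only.

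**Figure D1:**
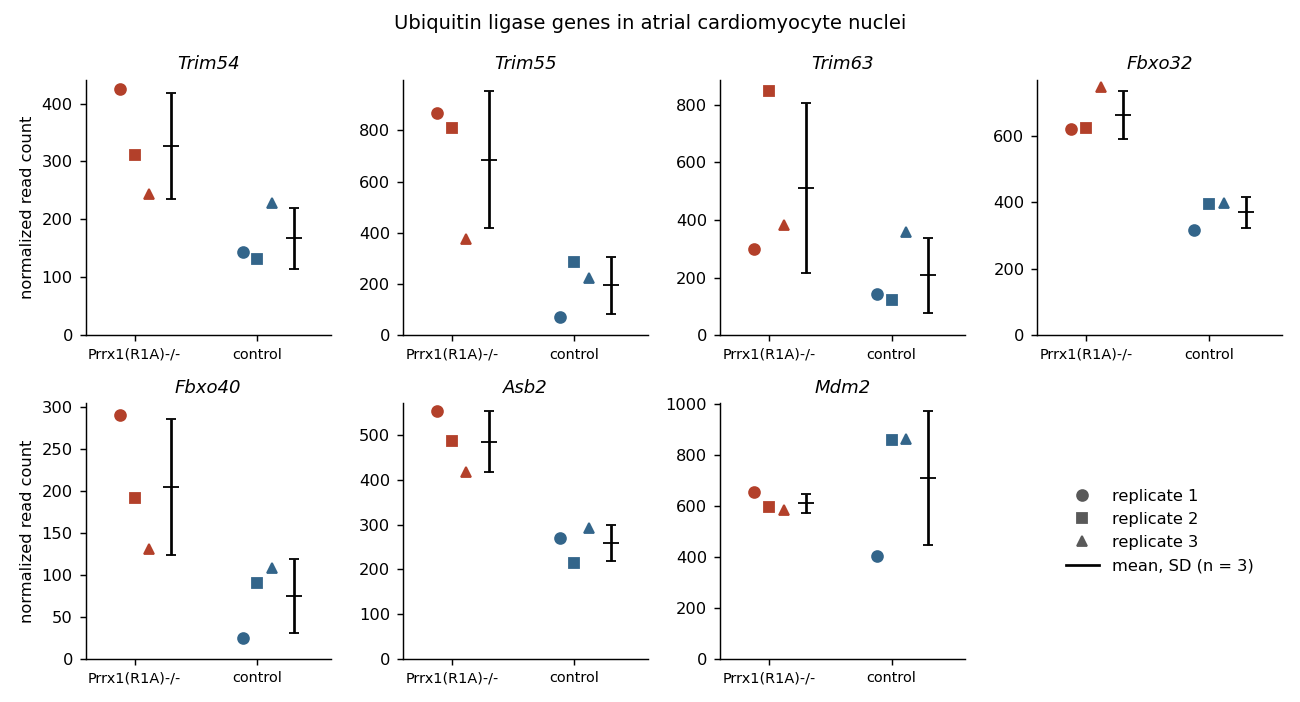
Normalized counts of the 7 ligase genes in each of the 6 libraries, 1 panel per gene, with Prrx1(R1A)-/- on the left and control on the right; points are libraries, and bars with whiskers are the mean and SD of 3. The Prrx1(R1A)-/- points of Trim54, Trim55, Fbxo32, Fbxo40 and Asb2 lie above all their control points, while those of Trim63 and Mdm2 overlap with control; centred on cardiomyocyte genes, all but Mdm2 overlap.

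The 3 MuRF genes come first. Trim55, whose protein links titin to microtubules and shuttles to the nucleus, had 869.6, 808.7 and 377.0 normalized counts in Prrx1(R1A)-/- replicates 1, 2 and 3, against 71.7, 286.1 and 224.7 in control replicates 1, 2 and 3. Its lowest Prrx1(R1A)-/- library exceeded its highest control library. The means were 685.1 ± 269 in Prrx1(R1A)-/- and 194.2 ± 110 in control nuclei (SD, n = 3 each), a ratio of 3.53. The log2 difference was 1.94 ± 0.48 (SE, 95% interval 0.89 to 2.99), with an unadjusted p of 0.0017 and an adjusted p of 0.177 by limma. Control replicate 1 was the lowest library by far, with 57 reads, and without it the difference was 1.34, with an adjusted p of 0.0207.

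Trim54, the microtubule-stabilising member of the family, had 425.6, 312.0 and 243.6 normalized counts in the Prrx1(R1A)-/- libraries, against 143.4, 131.1 and 227.7 in the control libraries. The groups did not overlap, although the lowest Prrx1(R1A)-/- value was close to the highest control value. The log2 difference was 0.97 ± 0.31, with an adjusted p of 0.288 by limma. Without Prrx1(R1A)-/- replicate 1 it was 0.76, with an unadjusted p of 0.055. The exons of Trim54, 9 in number on chr5:31116612-31137626 (GRCm38, plus strand), overlap 382 bases of exons of Gm15469 on the other strand. Of the 50-base stretches of the Trim54 transcript, 19.1% occur in Gm15469 when both strands are searched, which can be this same overlap. No label says that strand was kept, so reads in the shared stretch cannot be told apart between Trim54 and Gm15469.

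Trim63, the ligase of troponin I and myosin heavy chain, had 299.6, 848.3 and 382.0 normalized counts in Prrx1(R1A)-/- nuclei, against 142.2, 122.8 and 356.7 in control nuclei. One Prrx1(R1A)-/- library stood far above the other 2, and control replicate 3 lay inside the range of the Prrx1(R1A)-/- libraries. The means were 510.0 ± 296 in Prrx1(R1A)-/- and 207.2 ± 130 in control (SD, n = 3 each), and the log2 difference was 1.32 ± 0.45, with an unadjusted p of 0.0131 and an adjusted p of 0.310 by limma. Without Prrx1(R1A)-/- replicate 2, the high library, the difference was 0.87, with an unadjusted p of 0.083.

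The MuRF genes did not share 1 ranking of libraries: Trim54 and Trim55 were highest in Prrx1(R1A)-/- replicate 1, and Trim63 in replicate 2. Their longest identical stretch, between Trim54 and Trim63, was 28 bases. Per kilobase of exon, Trim63 made up 27.0% ± 11.3 of the sum of the 3 genes in Prrx1(R1A)-/- and 26.7% ± 8.21 in control (SD, n = 3 each). Trim55 made up 37.9% ± 6.57 in Prrx1(R1A)-/- and 27.5% ± 15.1 in control, and Trim54 35.1% ± 7.54 in Prrx1(R1A)-/- and 45.7% ± 9.67 in control. The exact permutation tests of these 3 shares gave two-sided p-values of 1, 0.3 and 0.3, where 3 animals against 3 cannot give less than 0.1.

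Among the F-box genes, Fbxo32 had the tightest groups of the 6 genes that were higher in Prrx1(R1A)-/- nuclei. It encodes atrogin-1, which targets calcineurin and MyoD. Its normalized counts were 619.9, 625.1 and 747.9 in Prrx1(R1A)-/- libraries, against 317.1, 394.0 and 398.2 in control libraries. The groups were well apart, with coefficients of variation of 10.9% in Prrx1(R1A)-/- and 12.3% in control. The means were 664.3 ± 72.4 in Prrx1(R1A)-/- and 369.8 ± 45.7 in control (SD, n = 3 each), a ratio of 1.80. The log2 difference was 0.85 ± 0.22 (SE, 95% interval 0.36 to 1.33), with an unadjusted p of 0.0027 and an adjusted p of 0.204 by limma. Fbxo32 lies on chr15:58175879-58214892 on the minus strand, and 186 bases of its exons overlap Gm15943 on the other strand, whose reads there cannot be told apart from its own. Klhl38, a Kelch-type adaptor that also overlaps Gm15943 and was chosen for that with its values known, averaged 170.6 ± 25.5 normalized counts in Prrx1(R1A)-/- and 82.6 ± 35.1 in control, a log2 difference of 1.14 ± 0.38 with an adjusted p of 0.309 by limma.

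Fbxo40, the muscle F-box protein that in cultured muscle cells targets the insulin receptor substrate IRS1, was the least abundant member. It had 291.0, 192.0 and 130.4 normalized counts in Prrx1(R1A)-/- nuclei, against 25.2, 90.6 and 108.3 in control nuclei. The groups did not overlap, and control replicate 1 was again the lowest, on 20 reads. The log2 difference was 1.61 ± 0.52, with an adjusted p of 0.288 by limma. It was 0.96 without control replicate 1, and 1.32 with an unadjusted p of 0.056 without Prrx1(R1A)-/- replicate 1.

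Asb2, which directs filamin breakdown in developing muscle, had 552.6, 487.1 and 416.4 normalized counts in Prrx1(R1A)-/- libraries, against 270.5, 213.5 and 291.4 in control libraries. These were also narrow groups that stood apart, with means of 485.4 ± 68.1 in Prrx1(R1A)-/- and 258.5 ± 40.4 in control (SD, n = 3 each). The log2 difference was 0.91 ± 0.24, with an unadjusted p of 0.0030 and an adjusted p of 0.207 by limma. Flnc, the muscle filamin, was itself higher, at 12022 ± 4766 in Prrx1(R1A)-/- and 3518 ± 907 in control. Its log2 difference was 1.73 ± 0.32 with an adjusted p of 0.094 by limma, and 0.70 when centred on cardiomyocyte genes.

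Mdm2, which most tissues express, had 653.6, 595.1 and 584.2 normalized counts in Prrx1(R1A)-/- nuclei, against 405.2, 861.3 and 864.6 in control nuclei. The Prrx1(R1A)-/- libraries were close together and lay inside the wide control range, which control replicate 1 alone opened. The log2 difference was −0.14 ± 0.29 (SE, 95% interval −0.78 to 0.51), with an adjusted p of 0.888 by limma. Without control replicate 1 it was −0.50, with an unadjusted p of 0.0132 and an adjusted p of 0.090, and without control replicate 2 or 3 it was 0.04 or 0.05. The sign of the Mdm2 difference thus turned on which control library was left out.

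Permuting the group labels over the 6 libraries in all 20 ways, an exact permutation test, gave a two-sided p of 0.1, the smallest possible, for Trim54, Trim55, Fbxo32, Fbxo40 and Asb2. It gave 0.2 for Trim63 and 0.8 for Mdm2.

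**Figure D2:**
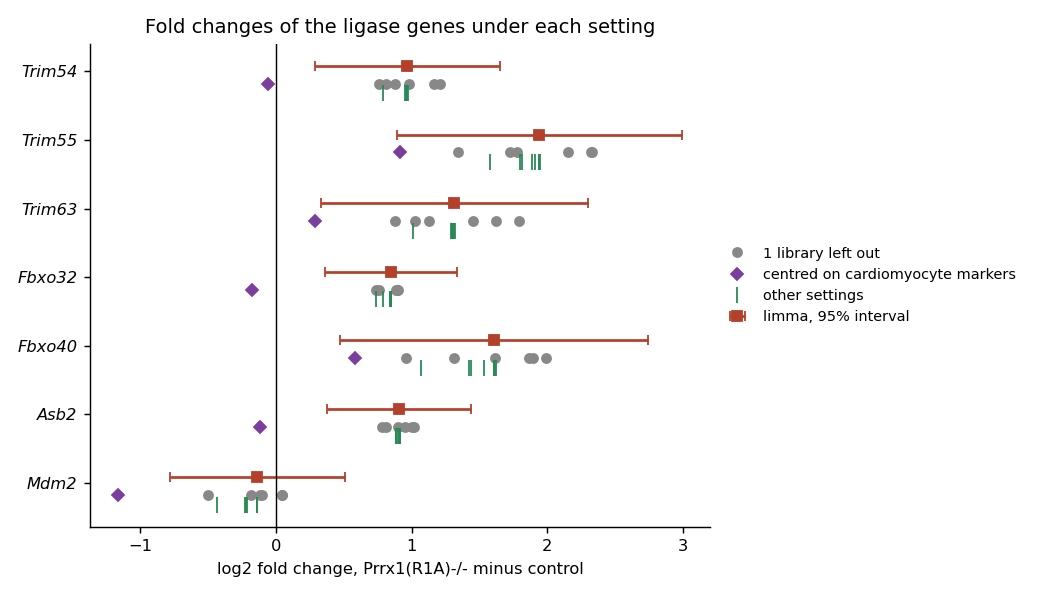
Fitted log2 differences (Prrx1(R1A)-/- minus control) of the 7 ligases with 95% intervals, with the range over 17 other settings drawn beside each. The interval of every gene except Mdm2 lies above 0, while the ranges of Trim54, Fbxo32 and Asb2 reach below 0 at the setting centred on cardiomyocyte genes.

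Calls for single members depended on how the spread between libraries was handled. Trim55, Fbxo32 and Asb2 were the 3 members that passed an adjusted p under 0.05 in 3 other fits. DESeq2 on the recovered reads gave adjusted p-values of 0.0064, 0.044 and 0.044 for them, and called 1.09% of all genes higher. Limma without control replicate 1 gave 0.0207, 0.0297 and 0.0223, and called 6.1% of genes higher. Limma with a weight for the quality of each library gave 0.0081, 0.021 and 0.0175, and called 6.51% higher. Under edgeR 0 genes were called, with 1753 at an unadjusted p under 0.05. In the authors' deposited table of 1900 genes with an unadjusted p under 0.05, 8% had an adjusted p under 0.05 and were higher in Prrx1(R1A)-/-. The authors' deposited table put Trim55 at 1.40 on the log2 scale, at an adjusted p of 0.0046. The other 5 higher members were listed in the authors' deposited table with adjusted p-values from 0.0591 for Asb2 to 0.141 for Trim54, and Mdm2 was not among its 1900 genes.

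Levels were compared between genes as normalized counts per kilobase of exon. In Prrx1(R1A)-/- nuclei the order of mean levels per kilobase was Trim55 at 257.7 ± 101, Trim54 at 227.7 ± 64.0, Trim63 at 179.4 ± 104, Asb2 at 137.0 ± 19.2, Mdm2 at 120.2 ± 7.34, Fbxo32 at 95.2 ± 10.4 and Fbxo40 at 37.1 ± 14.7 (SD, n = 3). From Trim55 down to Mdm2 each gene overlapped with its neighbour, while Mdm2 and Fbxo32, and Fbxo32 and Fbxo40, did not overlap. In control nuclei Mdm2 came first at 139.8 ± 52.0 per kilobase, before Trim54 at 116.6 ± 36.6, while Trim55, Asb2 and Trim63 averaged 73.0 ± 41.5, 73.0 ± 11.4 and 72.9 ± 45.7. Fbxo32 at 53 ± 6.54 and Fbxo40 at 13.5 ± 7.94 came last in control, and Fbxo40 alone lay clear of its neighbour. Among the 14074 tested genes with an exon length, Trim55 stood at the 94.4th percentile of mean levels in Prrx1(R1A)-/- and at the 73.1st in control, and Mdm2 at the 83.9th in Prrx1(R1A)-/- and the 87.6th in control.

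The libraries also differed in their content of cardiomyocyte RNA. In bulk nuclei, fewer cells of a type and less RNA per cell cannot be told apart. Of all genes tested, 6.67% were higher and 5.25% were lower at an unadjusted p under 0.05 by limma. Of 12 cardiomyocyte markers, 8 were higher at that p and 0 were lower, with a median log2 difference of 1.25. Their summed level was 821308 to 1525090 normalized counts in Prrx1(R1A)-/- and 308349 to 592405 in control libraries. Of 12 fibroblast markers 9 were lower, with sums of 35672 to 40010 in Prrx1(R1A)-/- and 49842 to 82639 in control, and of 12 immune markers 6 were lower, with sums of 6933 to 11965 in Prrx1(R1A)-/- and 7240 to 22199 in control. No marker of these 3 lists was at 0 in a whole group. Of 11 tested endothelial markers 1 was higher and 2 were lower, of 12 smooth muscle and pericyte markers 2 were higher and 1 was lower, and of 10 epicardial markers 0 were higher and 2 were lower. Of 5 tested adipocyte markers none differed at that p, and of 7 tested Schwann cell and neuron markers 1 was lower. A count of 1 in lists of this size is near the shares over all genes. Skeletal muscle markers, which matter because 6 of the ligases are also skeletal muscle genes, were low: 9 of 12 did not reach the filter, with at most 18 normalized counts in any library, and Pax7 was at 0 in all 6 libraries, which allows up to 3 reads in each. Their summed level was 584.3 to 1278.5 in Prrx1(R1A)-/- and 328.0 to 438.3 in control. Tnnt3, fast skeletal troponin T, stood at 426.5 in Prrx1(R1A)-/- replicate 3, against 52.6 to 100.7 in the other 5 libraries, and its part in the ligase values of that library was not tested. The 1 marker past an unadjusted p of 0.05 was Ckm, the muscle creatine kinase, at a log2 difference of 1.14 ± 0.29.

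Each ligase was therefore also read against the mean log2 level of the 12 cardiomyocyte markers in the same library. That mean was 13.86, 13.79 and 13.50 in Prrx1(R1A)-/- replicates 1, 2 and 3, and 12.11, 12.71 and 13.25 in control replicates 1, 2 and 3. The groups differed by 1.02. On this scale the groups of all 6 higher ligases overlapped, and none of the 6 passed an unadjusted p under 0.05 by limma. Trim55 kept the largest difference, 0.92 ± 0.47 with an unadjusted p of 0.059, followed by Fbxo40 at 0.58 ± 0.49 and Trim63 at 0.29 ± 0.48. The differences of Trim54, Asb2 and Fbxo32 were −0.06 ± 0.44, −0.12 ± 0.44 and −0.18 ± 0.44. Mdm2 was −4.50, −4.57 and −4.31 in Prrx1(R1A)-/-, against −3.45, −2.96 and −3.49 in control, a log2 difference of −1.16 ± 0.43 with an adjusted p of 0.0495. The same centring moved the median of all genes to −1.03 and called 22.4% of them lower, and Mdm2 differed from that median by −0.13. How much of each ligase's difference goes with cardiomyocyte RNA content was not tested beyond this centring.

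**Figure D3:**
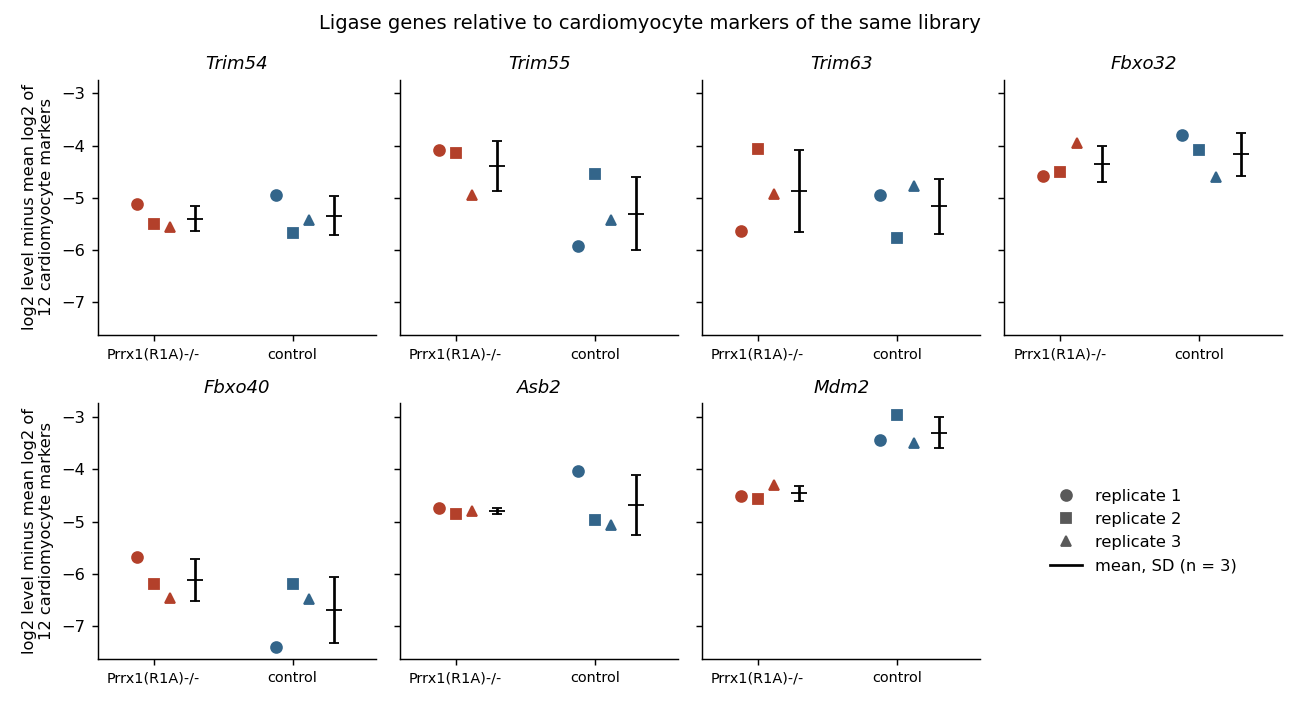
Log2 level of each ligase minus the mean log2 level of 12 cardiomyocyte markers in the same library, with Prrx1(R1A)-/- on the left and control on the right; points are libraries and bars are means. The 2 groups overlap for every gene except Mdm2, whose 3 Prrx1(R1A)-/- points lie below its 3 control points.

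The labels do not say which part of Prrx1 the allele removes, so a count over the whole gene is a limited check of them. Prrx1 averaged 192.7 ± 9.07 normalized counts in Prrx1(R1A)-/- and 344.0 ± 67.0 in control (SD, n = 3 each), and its groups did not overlap. The log2 difference was −0.82 ± 0.25, with an adjusted p of 0.270 by limma. Its value in control replicate 3 was the 1 value that did not come to a whole number of reads. The 12 fibroblast markers had a median log2 difference of −0.70, with 0 above 0. Whether the Prrx1 difference goes with fibroblast content was not tested. The libraries held 10580961 to 14658584 reads, of which ribosomal RNA took 26.7% to 39.8% in Prrx1(R1A)-/- and 12.0% to 46.5% in control. Control replicate 1 had the highest ribosomal share and the lowest cardiomyocyte marker level. Across genes, control replicate 1 correlated with the other 5 libraries at 0.890 to 0.908. Pairs of those 5 libraries correlated at 0.912 to 0.958, highest between control replicates 2 and 3. Control replicate 1 held the lowest value of Trim55, Fbxo32, Fbxo40 and Mdm2 in the whole series, on 57, 252, 20 and 322 reads.

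The proteins that the ligases bind or degrade were read next. Of 30 tested substrates and partners, many of them sarcomere proteins, 15 were higher at an unadjusted p under 0.05, against 6.67% of all genes, and 0 were lower, with a median log2 difference of 0.57 against −0.00 over all genes. Of these 30 genes 7 (Ttn, Tnni3, Tnnt2, Myh6, Mybpc3, Myl7 and Actn2) are also among the cardiomyocyte markers, and 6 of the 7 were higher; of the other 23, 9 were higher, with a median of 0.42. Tnnt2, cardiac troponin T, was higher by 1.48 ± 0.27 with an adjusted p of 0.094 by limma, and by 0.45 when centred on cardiomyocyte genes. Titin, on which the MuRF proteins sit, differed by 1.49 ± 0.52, and Tcap, the titin cap protein that MuRF proteins also bind, by 0.97 ± 0.37. The groups of Tcap overlapped, and centring on cardiomyocyte genes lowers each difference by 1.02. Ppp3ca, the catalytic subunit of calcineurin and a substrate of atrogin-1, differed in the other direction, by −0.55 ± 0.25. Its 95% interval of −1.09 to 0.003 included 0, with an unadjusted p of 0.051 by limma. Titin, Tcap and Ppp3ca were chosen after their values were seen.

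The machinery that the F-box and SOCS-box ligases share was read from 19 cullin-RING subunits and regulators. At an unadjusted p under 0.05, 1 was higher, which is near the 6.67% of all genes, and 4 were lower, against 5.25% of all genes, with a median of −0.39. Skp1a, the adaptor that holds F-box proteins such as Fbxo32 and Fbxo40, averaged 71.8 ± 31.4 normalized counts in Prrx1(R1A)-/- and 125.0 ± 21.1 in control, a log2 difference of −0.89 ± 0.40. Tceb2, the elongin B subunit that holds Asb2, differed by −0.80 ± 0.36 with an unadjusted p of 0.045. For the scaffolds, the differences were −0.15 ± 0.35 for Cul1 and −0.37 ± 0.32 for Cul5, with intervals that include 0. Skp1a, Tceb2, Cul1 and Cul5 were chosen because they pair with members, with their values known. Rnf7, a RING subunit that pairs with Cul5, averaged 7.33 ± 0.968 in Prrx1(R1A)-/- and 34.9 ± 21.6 in control, with an adjusted p of 0.364 by limma. Its Prrx1(R1A)-/- level rests on few reads. Every Prrx1(R1A)-/- library was under the filter of 10 normalized counts, so Rnf7 was tested only through its control libraries. Its place among the 4 lower genes is therefore a description only. Cand2, the muscle form of the cullin exchange factor, averaged 628.6 ± 95 in Prrx1(R1A)-/- and 355.4 ± 34.3 in control, a log2 difference of 0.81 ± 0.23 with an adjusted p of 0.224, which turned to −0.21 when centred on cardiomyocyte genes.

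Of 22 ubiquitin genes and activating and conjugating enzymes 0 were higher and 1 was lower at that p, a share near the 5.25% of all genes, with a median of −0.20. The 1 gene was Ube2r2, a conjugating enzyme of cullin ligases, at 493.8 ± 87.7 in Prrx1(R1A)-/- and 723.4 ± 30.1 in control, with an adjusted p of 0.358 by limma. Ube2b, which works with N-end rule ligases in muscle, averaged 279.3 ± 20.7 in Prrx1(R1A)-/- and 464.4 ± 176 in control, and its groups overlapped. Of 22 deubiquitinases 4 were higher, against 6.67% of all genes, and 0 were lower, with a median of 0.07. Usp13 had a log2 difference of 1.19 ± 0.36 with an adjusted p of 0.264 by limma, which was 0.70 without control replicate 1 and 0.17 when centred on cardiomyocyte genes. Usp2 had one of 0.72 ± 0.23 with an adjusted p of 0.290, which turned to −0.30 when centred.

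Of 37 other muscle ligases and adaptors that were tested, 6 were higher at an unadjusted p under 0.05, against 6.67% of all genes, and 0 were lower, with a median of 0.27, where the 7 members had 0.97. The 6 were Rnf207, Trim72, Klhl38, Fbxl22, Ubr4 and Park2. Rnf207, a RING protein that regulates the HERG channel in the heart, averaged 1896 ± 371 in Prrx1(R1A)-/- and 582.3 ± 191 in control, a log2 difference of 1.74 ± 0.27 with an adjusted p of 0.088 by limma. Trim72 (MG53, a membrane repair protein and ligase) averaged 232.2 ± 87.9 in Prrx1(R1A)-/- and 68.7 ± 49.7 in control, with a log2 difference of 1.91 ± 0.47 and an adjusted p of 0.177. Both have exons that overlap a gene on the other strand, Icmt and Gm15533. Centred on cardiomyocyte genes, the difference was 0.71 for Rnf207 and 0.89 for Trim72. Of the TRIM proteins with a COS box outside the MuRF family, 4 were tested. Among them Trim67 was higher by 1.43 ± 0.44 and Mid2 differed by −0.73 ± 0.33, with adjusted p-values of 0.268 and 0.410 by limma. Centred on cardiomyocyte genes, Trim67 differed by 0.41 and Mid2 by −1.76.

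**Figure D4:**
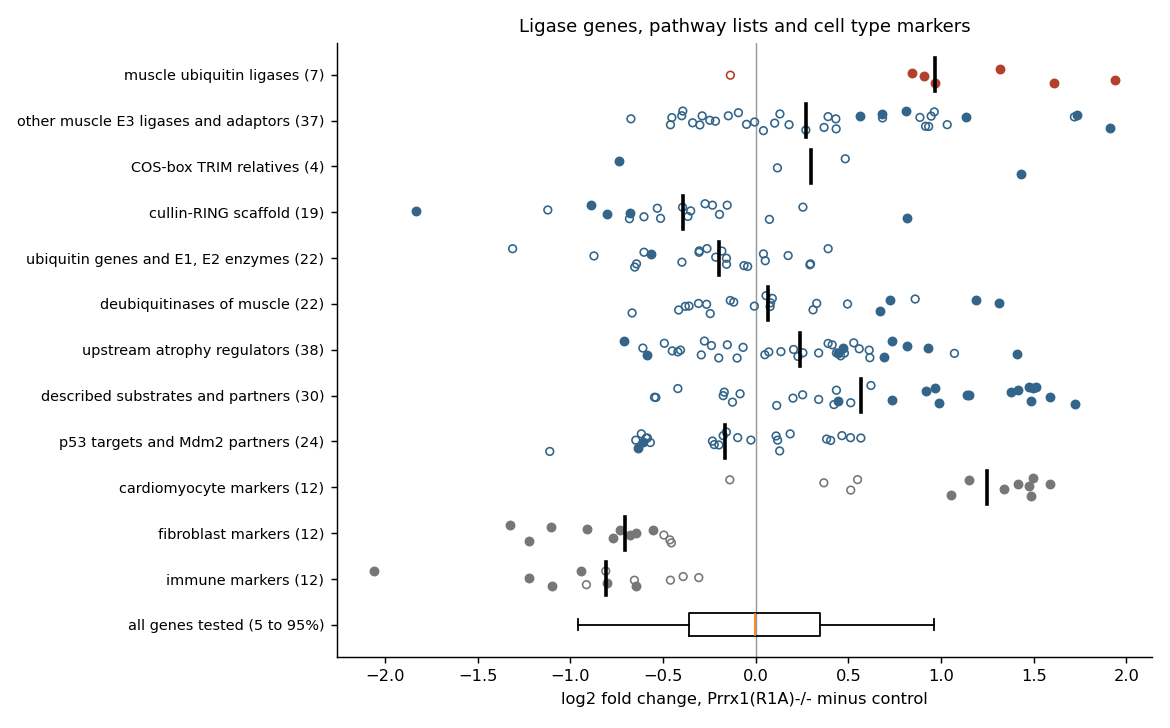
Log2 differences (Prrx1(R1A)-/- minus control) of the tested genes of each list, 1 point per gene with the list's median as a bar. The 7 ligases have a median of 0.97, between the substrates and partners at 0.57 and the cardiomyocyte markers at 1.25, while the cullin-RING subunits have a median of −0.39; centring on cardiomyocyte genes would lower every point by about 1.02.

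Of 38 tested regulators of the ligase genes, 7 were higher at an unadjusted p under 0.05, against 6.67% of all genes, and 2 were lower, which is near the 5.25% of all genes; their median was 0.24. Myocd, the myocardin coactivator that works at CArG boxes, averaged 2285 ± 853 in Prrx1(R1A)-/- and 825.2 ± 105 in control. Its log2 difference was 1.41 ± 0.27 with an adjusted p of 0.094 by limma, and 0.38 when centred on cardiomyocyte genes. Hdac4, a deacetylase that in denervated muscle acts upstream of Trim63 and Fbxo32, averaged 1633 ± 86.4 in Prrx1(R1A)-/- and 937.3 ± 196 in control, a log2 difference of 0.82 ± 0.21 that turned to −0.21 when centred on cardiomyocyte genes. The factors whose FoxO and glucocorticoid receptor elements matched by letters in the Trim63 window were also looked up, with their values known. Foxo3 averaged 1389 ± 163 in Prrx1(R1A)-/- and 1019 ± 68.9 in control, with an unadjusted p of 0.048 by limma, and Foxo1 averaged 665.5 ± 149 in Prrx1(R1A)-/- and 881.0 ± 105 in control, with an unadjusted p of 0.093. Nr3c1, the glucocorticoid receptor, differed by −0.59 ± 0.21 on the log2 scale, with an unadjusted p of 0.0165, and Klf15, a target of that receptor, by 0.93 ± 0.28, with an unadjusted p of 0.0067. Centring on cardiomyocyte genes lowers each of these differences by 1.02, more than the 0.93 of Klf15 and the 0.44 of Foxo3. None of these genes had an adjusted p under 0.05.

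For Mdm2, the p53 side of the pathway was read the same way. Of 24 tested p53 targets and partners of Mdm2 0 were higher and 2 were lower at an unadjusted p under 0.05, against 5.25% of all genes lower, with a median of −0.17. The 2 were Cdkn1a and Rb1. Cdkn1a, the p21 cell cycle inhibitor that p53 switches on, averaged 347.2 ± 101 in Prrx1(R1A)-/- and 529.0 ± 86.2 in control, a log2 difference of −0.63 ± 0.26 with an adjusted p of 0.380 by limma. Rb1, the retinoblastoma protein that Mdm2 binds, differed by −0.61 ± 0.25 with an adjusted p of 0.379. Trp53 itself differed by −0.17 ± 0.25, and Mdm4, the partner of Mdm2, averaged 809.8 ± 6.42 in Prrx1(R1A)-/- and 959.2 ± 140 in control. Trp53 and Mdm4 were added with their values known.

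The genes with the most similar pattern were sought over the 6 libraries, by Pearson's correlation of log2 levels among 8139 tested genes with a mean of at least 100 normalized counts. The libraries share depth, composition and genotype, so these values are descriptions. Each pair was also picked as the highest of 8139 genes over only 6 libraries, so values near 1 can arise from the picking alone. Trim55 was most like Esrrg at 0.996 and Samd4 at 0.994, and Fbxo40 most like Clcn1 at 0.998 and Jph1 at 0.996. Esrrg encodes an orphan nuclear receptor of oxidative metabolism, Clcn1 the muscle chloride channel and Jph1 a junctophilin of the membrane junctions of muscle. Trim54 was most like Trak2 at 0.986 and Crip3 at 0.984, and Trim63 most like Cnksr3 at 0.993 and Mtr at 0.991. For Fbxo32 the nearest genes were Zpr1 at 0.987 and Men1 at 0.976, for Asb2 they were Chd6 at 0.996 and Wnk2 at 0.994, and for Mdm2 they were Gnpat and Gorasp2, both at 0.996. No gene appeared in the nearest pair of more than 1 member.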

How the data were processed

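RNA of PCM1-sorted atrial nuclei was measured in 6 libraries, 1 per animal. Per the submitters' processing notes, STAR, DESeq2 and mm10 were used; no source used here gives their versions, the read counter or strandedness. The authors deposited 1 signal value per gene and library, called a normalized count in the sheet name. The authors also deposited a table of 1900 genes with the mean signal, log2 fold change and SE, Wald score, p-value and −log10 of the adjusted p-value.

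The 14584 genes (of 26332) that had at least 10 normalized counts in 3 or more libraries were tested with limma-trend (limma 3.58.1, R 4.3.3) on log2(normalized count + 1), genotype only, two-sided, with Benjamini-Hochberg adjustment over all of them. Single genes had an exact permutation test over 20 labelings. Whole reads, recovered within 0.01 reads except for 1 value (Prrx1 in control replicate 3), were rounded for edgeR 4.0.16 and DESeq2 1.42.0. A fold change on this scale understates the change of low genes.

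Total reads per library were 10580961 to 14658584, or 6465255 to 9807543 without ribosomal RNA, and 3 reads, the limit that a count of 0 allows at 95%, came to 2.22 to 3.77 normalized counts; this limit covers counting error only. Exon lengths, overlaps and promoters came from GRCm38. Named genes were the 7 members, the 2 tested genes with the smallest p of each other list, the 2 genes most like each member, and Prrx1; others are said to be chosen with their values known. The members and lists were chosen with earlier results of these data known. The 17 alternatives covered pseudocounts of 0.5 and 5, no filter and a filter at 50, TMM and quantile scaling, centring on cardiomyocyte markers, edgeR, DESeq2, a replicate block, library quality weights and leaving out each library.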

Additional observations from a re-analysis of the deposited data

How the results depend on the processing

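With 3 animals a group, the number of genes called over all genes turned on the processing: it was 2 by limma as reported, 0 with quantile scaling, 0 with edgeR (1753 at an unadjusted p under 0.05), 244 with DESeq2, 1521 with library quality weights, 3266 when centred on cardiomyocyte markers, and 0 to 1312 when 1 library was left out, with 1312 reached without control replicate 1. The number of ligases past an unadjusted p under 0.05 was 6 as reported, 1 (Mdm2) when centred and 4 to 7 when 1 library was left out. For the other pathway genes it was 42 of 190 as reported, 95 when centred, 82 with library quality weights and 23 to 75 when 1 library was left out. Among all genes tested, 6785 of 14584 passed that p when centred and 4103 with library quality weights. As reported, 973 of them were higher and 766 were lower. With 1 library left out, 1022 to 3704 genes passed. Centring, which moved the median of all genes to −1.03, turned Trim54 to −0.057, Fbxo32 to −0.18, Asb2 to −0.12, Cand2 to −0.21, Usp2 to −0.30 and Hdac4 to −0.21 on the log2 scale. Mdm2 ran from −0.50 without control replicate 1 to 0.044 and 0.047 without control replicates 2 and 3. The cause of these shifts was not tested. Trim55, Trim63 and Fbxo40 were above 0 under all 17 alternatives, with differences of 0.92 to 2.33, 0.29 to 1.79 and 0.58 to 1.99. The replicate block called 0 genes, and same-numbered libraries did not deviate together (correlations of deviations −0.112, −0.0187 and −0.0868). No label says whether the numbers pair the animals, and these correlations cannot tell.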
